A study of Mus musculus with 2 samples.

Results

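The IL-1, IL-18 and IL-36 genes examined here are 10 members of the interleukin-1 family, taken by gene symbol from a table of 47719 genes measured in cultured mouse keratinocytes. They comprise 5 agonist genes (Il1a, Il1b, Il18, Il1f6 and Il1f9), 2 antagonist genes (Il1rn and Il1f5) and 3 receptor genes (Il1r1, Il1r2 and Il1rl2), and all 10 were found. Il1f6, Il1f9 and Il1f5 encode the proteins now called IL-36 alpha, IL-36 gamma and the IL-36 receptor antagonist. Of the 10, 8 were expressed, meaning at least 1 CPM in 1 of the libraries (CPM is the read count scaled to library size). Il1r2 and Il1b stayed under that level and are described by their reads.

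RNA sequencing compared 1 library of the genotype Pp6fl/fl with 1 library of the genotype K5.Pp6fl/fl, which the sample title calls cKO. Pp6, named Ppp6c in the table, encodes the catalytic subunit of protein phosphatase 6, and K5 is the usual short name of keratin 5, whose promoter is active in basal keratinocytes. Tails of C57BL/6J mice, 8 weeks old, gave the keratinocytes, which grew for 3 days in culture, and both genotypes carry the floxed allele. The labels do not name the recombinase or the number of mice behind each culture. With 1 library per genotype no difference has a replicate check, so no p-value is given beyond those of the authors' deposited table, and every interval (95%) covers counting error only. Whether a difference belongs to the genotype or to the pair of cultures cannot be told apart.

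IL-1 family cytokines act through paired receptor chains that recruit the adaptor MyD88 and switch on NF-kB. IL-1 alpha and IL-1 beta bind the receptor encoded by Il1r1, IL-36 proteins bind the one encoded by Il1rl2, and each receptor has a natural antagonist that occupies it without signalling. Il1r2 encodes a decoy receptor that binds IL-1 and does not signal. Keratinocytes store IL-1 alpha and release it on injury, and IL-36 cytokines are known as drivers of pustular and psoriatic skin inflammation.

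The libraries held 19374759 and 17361257 estimated reads. Ppp6c was at 1074 reads in Pp6fl/fl cells and 707 in K5.Pp6fl/fl cells, a fold of 0.733 (0.666 to 0.807) by CPM and 0.548 by FPKM. The table is per gene and does not separate reads inside the deleted part from others. Defining keratinocyte markers were abundant in both, with Krt14 at 30699 and 28561 CPM and Krt5 at 17800 and 17101 CPM and Col17a1 at 3987 and 3608 CPM. Markers of other cells that make IL-1 were at or near 0. In the list for Langerhans cells, macrophages and dendritic cells, 8 of 12 genes had no read in either library, among them Cd207, Ptprc, Cd74, Lyz2 and Adgre1, and the 1 expressed gene was the lysosomal Cd68, at 29.7 and 25.0 CPM. None of the T cell, neutrophil, mast cell, fibroblast and endothelial markers was expressed. Of 7 melanocyte markers 5 were expressed, and the summed level of all 7 was 14.4 and 21.6 CPM. Dct, Pmel and Tyrp1 had folds of 2.12, 2.23 and 1.99 with intervals above 1, and Mitf was at 7.03 and 6.33 CPM, a fold of 0.9 with an interval that includes 1. Dct, Pmel and Tyrp1 were thus higher in the same library as the ligand genes, and their part in the results was not tested.

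The upstream sequences of 3 ligand genes are shown because these genes, all on chromosome 2, include the least and the most abundant ligand by mean FPKM. Il1a and Il1b are neighbouring genes, of which the first was well expressed and the second nearly silent in these cells. Il1rn is the antagonist of both. Each sequence is the 250 bases before a transcription start in RefSeq on GRCm38.p6, read 5′ to 3′ on the gene's strand. The RefSeq promoter table matched 9 of the 10 genes, all but Il1f6, with 13 windows. Capitals mark the AP-1 motif TGACTCA (or its reverse complement) and the TATA box letters TATAAA, searched on both strands.
Il1a, chr2:129309973-129310222, minus strand: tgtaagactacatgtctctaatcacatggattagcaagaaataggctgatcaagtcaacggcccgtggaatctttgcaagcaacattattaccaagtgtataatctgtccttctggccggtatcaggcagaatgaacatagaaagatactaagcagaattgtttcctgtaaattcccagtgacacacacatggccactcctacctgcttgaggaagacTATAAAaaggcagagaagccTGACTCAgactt
Il1b, chr2:129371140-129371389, minus strand: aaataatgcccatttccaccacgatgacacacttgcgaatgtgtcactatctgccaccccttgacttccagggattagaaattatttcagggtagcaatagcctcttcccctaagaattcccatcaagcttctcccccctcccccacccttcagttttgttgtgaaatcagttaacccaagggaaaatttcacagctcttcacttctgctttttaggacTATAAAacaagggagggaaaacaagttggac
Il1rn, chr2:24336610-24336859, plus strand, the first of 3 starts: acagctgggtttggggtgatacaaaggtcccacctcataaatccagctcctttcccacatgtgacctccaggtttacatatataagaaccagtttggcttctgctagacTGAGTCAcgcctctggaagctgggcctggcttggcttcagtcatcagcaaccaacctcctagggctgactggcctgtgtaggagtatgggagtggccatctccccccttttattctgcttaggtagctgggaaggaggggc

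Il1a and Il1b both carry TATAAA close to the start, beginning 32 and 31 bases upstream. The AP-1 letters stand 12 bases upstream of the Il1a start and 141 bases upstream of this Il1rn start, and they are not in the Il1b window. Windows at the later Il1rn starts, not shown, held neither TGACTCA nor TATAAA. Which Il1rn start these cells use was not tested. Among the 13 windows 2 held TGACTCA and 4 held TATAAA, against 4.46% and 12.4% of all 32851 promoter windows of this length. The NF-kB consensus was found in 1 of the 13, at the second Il1r1 start, against 7.25% of all windows, and the C/EBP consensus in 0, against 0.0578%. The windows of 1 gene can overlap, and a match is a run of letters and no evidence that a factor binds.

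The 6 expressed ligand genes, agonists and antagonists alike, were higher in K5.Pp6fl/fl cells, and the expressed receptor genes Il1r1 and Il1rl2 were lower. Il1b, with 1 and 0 reads, and Il1r2, with 16 and 16, had no difference detectable at this depth. The 4 well-expressed ligand genes Il1a, Il1f9, Il1f5 and Il1rn stood at 1.63 to 1.79 times their Pp6fl/fl level. The low-level agonists Il18 and Il1f6 had larger but less certain folds, of 3.76 and 3.66. Il1rl2 and Il1r1 stood at 0.804 and 0.864 of their Pp6fl/fl level. Of the 8 expressed members, 6 had a counting interval above 1 and 2 an interval below 1, where 16.6% of all 12325 expressed genes had an interval above 1 and 17.4% an interval below 1. The median log2 ratio was 0.89 for the 4 expressed agonists, 0.79 for the 2 antagonists and -0.26 for the 2 expressed receptors. Over all expressed genes it was -0.01. Il18 and Il1f6, counted among the 8 expressed members, reached 1 CPM only in the K5.Pp6fl/fl library, where they were higher. With a floor of 5 CPM, which leaves them out, the agonist median was 0.70 and the antagonist median 0.79. With 2 CPM added to both values these medians were 0.61 and 0.73.

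Il1a, the IL-1 alpha gene, had 505 reads in Pp6fl/fl cells (462 to 551, an exact Poisson interval) against 739 in K5.Pp6fl/fl cells (687 to 794). This is 26.1 and 42.5 CPM, or 15.6 and 25.5 FPKM, a fold of 1.63 (1.45 to 1.83) by CPM. Il1b, which encodes the inflammasome-dependent cytokine of macrophages and neutrophils, had 1 read in Pp6fl/fl cells and 0 in the other. A count of 0 allows up to 3 reads, so no fold is given. Agonist transcripts of the IL-1 receptor in these cultures were therefore nearly all Il1a.

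Il1f9, the IL-36 gamma gene, had 392 reads (354 to 433) in Pp6fl/fl cells and 577 (531 to 626) in K5.Pp6fl/fl cells, or 20.3 and 33.2 CPM. Its fold of 1.64 (1.44 to 1.87) was close to that of Il1a. Il1f6, the IL-36 alpha gene, was at 7 reads (2.81 to 14.4) and 23 reads (14.6 to 34.5). That corresponds to 0.362 and 1.32 CPM and a fold of 3.66 (1.52 to 10.1). Il1f8, which encodes IL-36 beta and is the remaining IL-36 agonist, had 110 and 119 reads, a fold of 1.2 (0.921 to 1.58) with an interval that includes 1. The IL-36 agonists differed in level: by FPKM, which corrects for length, Il1f9 was at 15.1 and 24.8, Il1f8 at 6.23 and 7.53 and Il1f6 at 0.626 and 2.78. Relative to Il1f9, Il1f8 reads were 0.735 times as many in K5.Pp6fl/fl cells as in the other (0.545 to 0.993). For Il1f6 relative to Il1f9 the corresponding value was 2.23 (0.915 to 6.22), which is not distinguishable from 1 at this depth.

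Il18 encodes a cytokine that caspase-1 matures and that promotes interferon gamma production in lymphocytes. It had 8 reads (3.45 to 15.8) in Pp6fl/fl cells and 27 (17.8 to 39.3) in K5.Pp6fl/fl cells, or 0.413 and 1.55 CPM, a fold of 3.76 (1.66 to 9.57). Il18 and Il1f6 were the 2 members past a rule of size used for all genes. The rule asks for a log2 ratio of at least 1 after 0.5 CPM is added to both values, at least 1 CPM in the higher library and an interval that excludes 1. By this rule 0.811% of expressed genes were higher, 0.195% lower and 1.01% either. With 2 CPM added instead, the log2 ratios of Il18 and Il1f6 became 0.56 and 0.49 and neither passed.

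**Figure D1:**
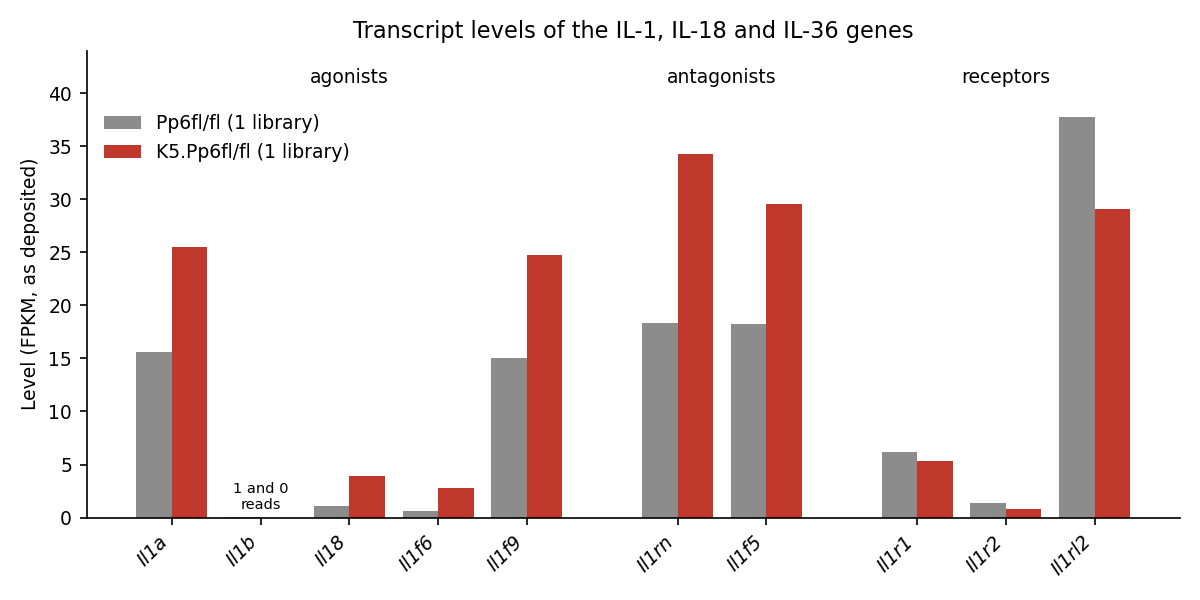
Deposited FPKM values (vertical axis, linear) of the 10 genes in Pp6fl/fl cells (grey) and K5.Pp6fl/fl cells (red), grouped as agonists, antagonists and receptors; each bar is 1 library, so there are no error bars. All plotted ligands except Il1b are higher in red, and Il1rl2 goes from 37.7 to 29.1 FPKM.

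Both antagonists were higher along with the agonists. Il1rn, which encodes the IL-1 receptor antagonist, had 224 reads (196 to 255) in Pp6fl/fl cells and 361 (325 to 400) in K5.Pp6fl/fl cells. At 11.6 and 20.8 CPM its fold was 1.79 (1.51 to 2.13). Il1f5, the IL-36 receptor antagonist gene, had 431 reads (391 to 474) and 659 reads (610 to 711), or 22.3 and 37.9 CPM, with a fold of 1.7 (1.51 to 1.93). The intervals of Il1a, Il1f9, Il1rn and Il1f5 overlap one another, so the antagonists were not distinguishable from the agonists in fold. Of the 6746 genes with a mean of 10 to 100 CPM, which is the range of these 4, 1.07% had a log2 ratio at or above the 0.69 of Il1a, the lowest of the 4. This range was chosen after the values were seen.

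The receptor for IL-36 was the most abundant of the 10 transcripts per length in Pp6fl/fl cells and the third in K5.Pp6fl/fl cells. Il1rl2 had 1554 reads (1478 to 1633) in Pp6fl/fl cells and 1122 (1057 to 1190) in K5.Pp6fl/fl cells. At 80.3 and 64.5 CPM its fold was 0.804 (0.744 to 0.868). Il1r1, the signalling receptor of IL-1, had 540 reads (495 to 588) and 419 reads (380 to 461), or 27.9 and 24.1 CPM, a fold of 0.864 (0.758 to 0.983). Folds as low as that of Il1r1 were not rare: 11.4% of the genes with a mean of 10 to 100 CPM had a log2 ratio at or below its -0.21. The decoy receptor gene Il1r2 had 16 reads in each library (9.15 to 26.0), a fold of 1.11 (0.521 to 2.38). No difference in Il1r2 was detectable at this depth.

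By FPKM the order in Pp6fl/fl cells was Il1rl2 at 37.7, Il1rn and Il1f5 both at 18.3, Il1a at 15.6, Il1f9 at 15.1 and Il1r1 at 6.15. Il1r2 followed at 1.39, Il18 at 1.04, Il1f6 at 0.626 and Il1b at 0.0491. In the K5.Pp6fl/fl library Il1rn was first at 34.3, followed by Il1f5 at 29.6, Il1rl2 at 29.1, Il1a at 25.5, Il1f9 at 24.8 and Il1r1 at 5.32. Below these came Il18 at 3.93, Il1f6 at 2.78, Il1r2 at 0.828 and Il1b at 0. Several neighbours in these orders lay within counting error of each other. Among them were Il1rn and Il1f5 in the first library, Il1f5 and Il1rl2 in the second, and Il1a and Il1f9 in both. The order of such neighbours is not resolved, and the spread between cultures is not known.

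**Figure D2:**
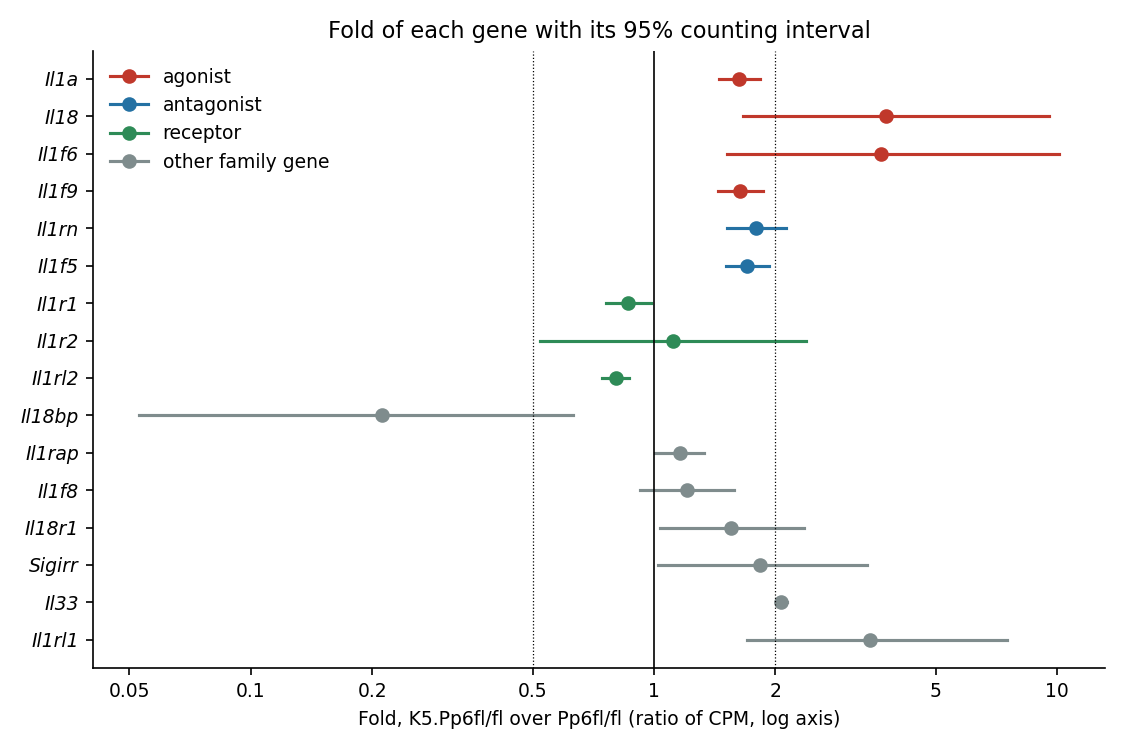
Fold of K5.Pp6fl/fl over Pp6fl/fl (ratio of CPM, log axis) for 9 of the genes and 7 other expressed genes of the family, with 95% counting intervals as lines; the solid line marks 1 and the dotted lines mark 2-fold. Agonists and antagonists lie to the right of 1, Il1r1 and Il1rl2 to the left, and Il18bp is the only plotted gene with its point beyond the 2-fold line on the left.

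A ratio of 2 genes within a library needs no scaling between libraries, and 12 such ratios were computed. Read ratios are not corrected for gene length, so their size does not show which transcript was the more abundant. In the IL-1 and IL-36 arms, no difference in the balance of agonist to antagonist reads was detectable. Il1a and Il1b together had 2.26 reads per Il1rn read in Pp6fl/fl cells and 2.05 in K5.Pp6fl/fl cells. The second ratio over the first was 0.906 (0.737 to 1.11). By FPKM, which corrects for length, the ratios were 0.854 and 0.745, below 1 in both libraries. Il1f6, Il1f9 and Il1f8 together had 1.18 and 1.09 reads per Il1f5 read, a quotient of 0.924 (0.78 to 1.09). Corrected for length by FPKM, these ratios were 1.2 and 1.19, above 1 in both libraries. Without Il1f8 the quotient by reads was 0.983 (0.822 to 1.18), and the FPKM ratios were 0.859 and 0.932. All 3 intervals include 1, and they do not exclude quotients as low as 0.737 for IL-1 and 0.78 for IL-36.

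The balance of ligand to receptor reads was about 2 times as high in K5.Pp6fl/fl cells. Il1a reads per Il1r1 read went from 0.935 to 1.76, a quotient of 1.89 (1.58 to 2.24), and Il1rn reads per Il1r1 read from 0.415 to 0.862, a quotient of 2.08 (1.67 to 2.58). IL-36 agonist reads per Il1rl2 read went from 0.328 to 0.641, a quotient of 1.96 (1.7 to 2.25), and Il1f5 reads per Il1rl2 read from 0.277 to 0.587, a quotient of 2.12 (1.83 to 2.45). By FPKM the ratio of Il1a to Il1r1 was 2.54 and 4.79, and that of the IL-36 agonists to Il1rl2 was 0.581 and 1.2. Agonist and antagonist were therefore higher relative to the receptor by similar amounts in both the IL-1 and the IL-36 arm. For the receptors relative to each other no difference was detectable, with 2.88 and 2.68 Il1rl2 reads per Il1r1 read, a quotient of 0.931 (0.8 to 1.08). For decoy over signalling receptor, Il1r2 over Il1r1, the quotient was 1.29 (0.595 to 2.79).

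**Figure D3:**
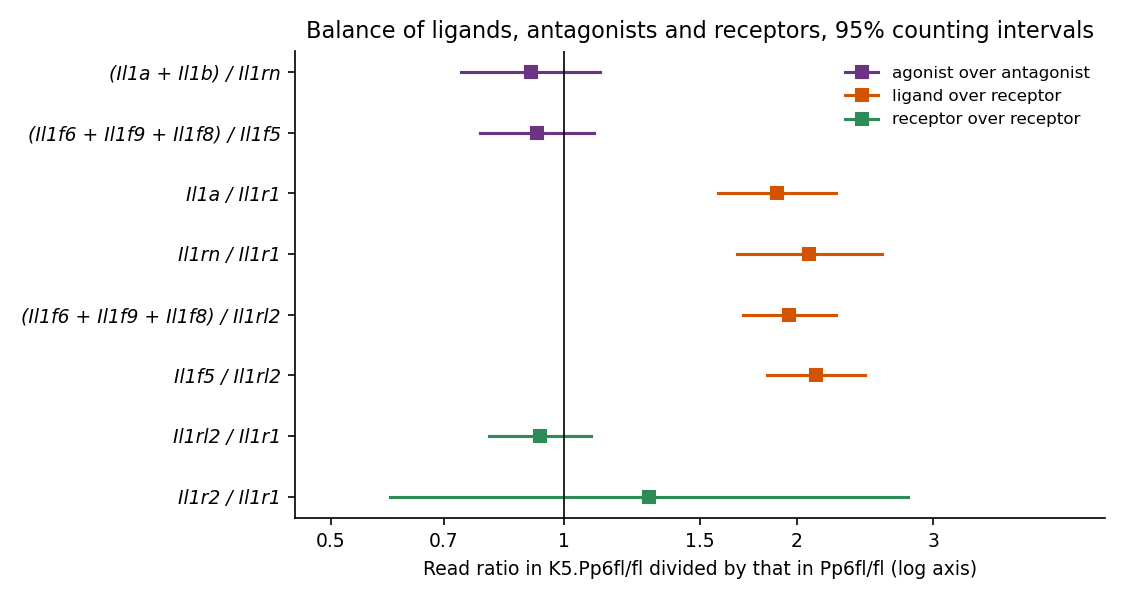
Read ratios within a library, K5.Pp6fl/fl divided by Pp6fl/fl (horizontal log axis), as squares with 95% counting intervals. The 2 agonist-over-antagonist ratios span 1, the 4 ligand-over-receptor ratios lie between 1.89 and 2.12, and both receptor-over-receptor ratios span 1.

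In the IL-18 arm the antagonist gene had fewer reads in K5.Pp6fl/fl cells, unlike Il1rn and Il1f5, but its level was near the floor. Il18bp encodes a secreted protein that binds and neutralises IL-18. It had 21 reads in Pp6fl/fl cells and 4 in K5.Pp6fl/fl cells, or 1.09 and 0.23 CPM, a fold of 0.212 (0.0529 to 0.628). Its ratio by FPKM was 0.213. It passed the rule of size as lower, though not with 2 CPM added, with a floor of 5 CPM or with 1 added to its FPKM. Il18 reads per Il18bp read went from 0.381 to 6.75, a quotient of 17.7 (4.09 to 87.2). The interval lies apart from those of the agonist-to-antagonist ratios of IL-1 and IL-36, though it rests on few reads. Il18 reached 1 CPM only in the K5.Pp6fl/fl library and Il18bp only in the Pp6fl/fl library. Of the 12 ratios computed, this quotient was the furthest from 1. Il18bp overlaps Numa1 on the opposite strand, which had 5485 and 4566 reads, and the library kit does not mark strand, so reads of the 2 genes cannot be told apart where they overlap.

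The other family genes were fixed as a list of 11 ligands, receptors and inhibitors, of which 7 were expressed. Of these, 2 passed the rule as higher and 1, Il18bp, as lower, against 0.811% and 0.195% of all expressed genes. The alarmin gene Il33 went from 304 to 629 CPM, a fold of 2.07 (2.0 to 2.14). Its receptor gene Il1rl1 had 11 and 34 reads, a fold of 3.44 (1.7 to 7.53). At 0.568 and 1.96 CPM, Il1rl1 reached 1 CPM only in the K5.Pp6fl/fl library, where it was higher. By FPKM its ratio was 2.21, with an implied length of 1980 and 3089 bases, and it did not pass the rule with 2 CPM added, with a floor of 5 CPM or by FPKM with 1 added. The shared co-receptor of the IL-1, IL-33 and IL-36 receptors, Il1rap, was at 20.8 and 24.0 CPM and had a fold of 1.16 (1.01 to 1.33). Il1f10, Il1rapl1 and Il1rapl2 had no reads. Outside the rule for named genes, and chosen after their values were seen, the IL-18 receptor gene Il18r1 had 43 and 60 reads, a fold of 1.55 (1.03 to 2.35), and Sigirr, an inhibitory member of the receptor family, 20 and 33 reads, a fold of 1.84 (1.02 to 3.38). With both chains of the IL-18 receptor needed for signalling, the second chain gene Il18rap, also outside the rule, had 3 and 8 reads.

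The ligand genes Il1f8, Il1f9, Il1f6, Il1f5, Il1f10 and Il1rn lie side by side on chromosome 2, and the receptor genes on chromosome 1. The order is that of the GENCODE annotation of GRCm38. Il1a and Il1b lie next to each other on chromosome 2 but far from this ligand cluster, and Il18 lies on chromosome 9. Along the ligand cluster, Il1f8, Il1f9, Il1f6 and Il1f5 had folds of 1.2, 1.64, 3.66 and 1.7, Il1f10 had no reads, and Il1rn had 1.79. Along the receptor cluster the folds did not go one way: Il1r2 was at 1.11, Il1r1 at 0.864, Il1rl2 at 0.804, Il1rl1 at 3.44 and Il18r1 at 1.55. The neighbours Il1rl2 and Il1rl1 had intervals on opposite sides of 1. Because strand is not marked, reads of overlapping opposite genes cannot be told apart either. At Il1a, with 505 and 739 reads, few were assigned to Gm14023, 12 and 6. At Il18, with only 8 and 27 reads, Bco2 had 3 and 2 and Tex12 had 1 and 0. These counts rest on the deposited assignment of reads to genes.

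The deposited FPKM values imply an effective length for each gene, and this length can show which annotated transcript the reads were assigned to. Over 912 genes with 1 annotated transcript and at least 100 reads in each library, the annotated length exceeded the implied one by a median of 304 bases in Pp6fl/fl cells and 307 in K5.Pp6fl/fl cells. Il1a, with 1 transcript of 1974 bases, had an implied length of 1669 and 1667 bases, and Il1r1, Il1f9 and Il18 were likewise equal in the libraries to within 1%. For Il1rn the implied length was 630 and 606 bases and for Il1f5 1218 and 1284 bases. Il1r2 stood apart with 593 bases in Pp6fl/fl cells and 1113 in K5.Pp6fl/fl cells, a ratio of 1.88 that only 0.955% of 12254 genes with at least 10 reads in both libraries matched or exceeded in either direction. The second value plus the median offset comes close to the annotated Il1r2 transcript of 1419 bases, and the first does not match any of the 4 annotated lengths as closely. Il1f6 had 577 and 477 bases, a ratio of 0.827 that 7.24% of these genes matched or exceeded, and its ratio by FPKM was 4.43 against 3.66 by CPM. With the change in implied length, Il1r2 was at 1.39 and 0.828 FPKM although its reads were equal, and 16 reads give little certainty in such an assignment.

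In the authors' deposited table Il18 and Il1f6 have log2 fold changes of 1.82 and 1.99 with FDR of 0.00936 and 0.0296. For Il1a, Il1f9, Il1f5 and Il1rn the authors' deposited table gives smaller log2 fold changes, 0.71, 0.71, 0.69 and 0.9, with lower FDR values of 6.86e-12, 5.48e-10, 9.7e-13 and 4.9e-09. For Il1rl2 the authors' deposited table gives -0.37 with an FDR of 0.000566 and for Il1r1 -0.2 with an FDR of 0.228. For Il1r2 the authors' deposited table gives -0.69 with an FDR of 0.971, a lower level where the reads were equal. By FPKM the ratio of Il1r2 was 0.595. The deposited fold changes are thus not the CPM folds used above. For Il1f5, Il1rn and Il1rl2 the log2 ratios by FPKM, with 1 added, were 0.67, 0.87 and -0.36. By CPM, with 0.5 added, they were 0.75, 0.82 and -0.31. The FDR values compare 1 library with 1 library, and the sources used here do not state the dispersion behind them.

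**Figure D4:**
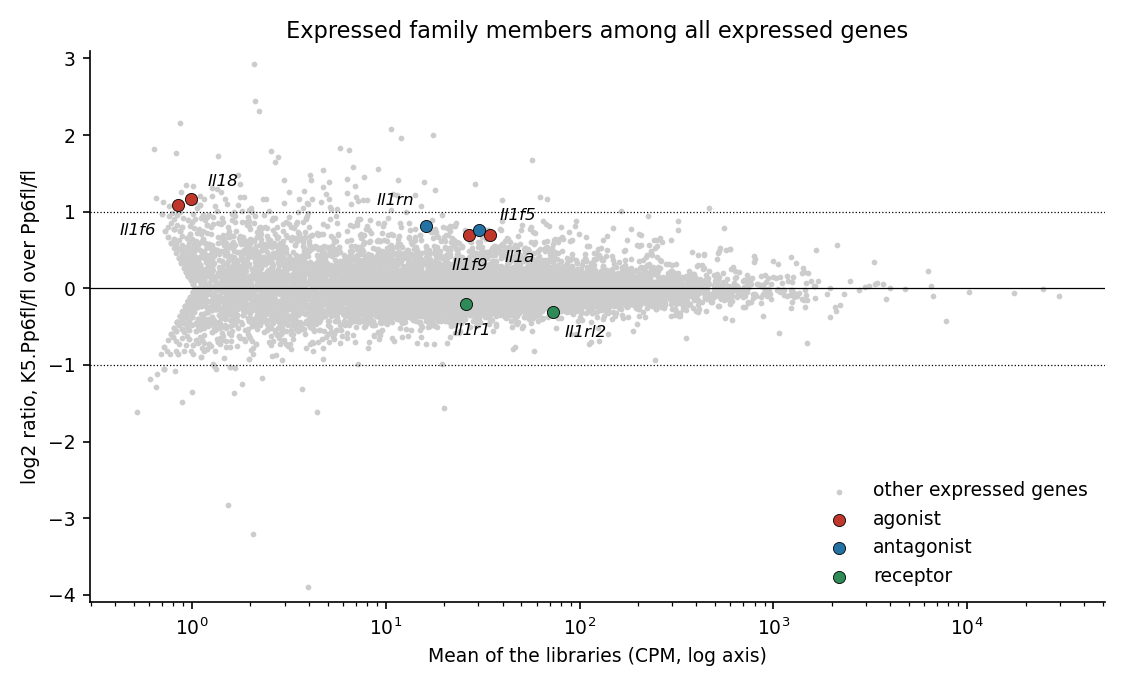
The log2 ratio of K5.Pp6fl/fl over Pp6fl/fl (vertical axis, after 0.5 CPM was added) against the mean level (horizontal log axis, CPM) for 12325 expressed genes in grey, with the 8 expressed members in colour by role; dotted lines mark 2-fold. Il18 and Il1f6 lie just above the upper dotted line among genes near 1 CPM, Il1a, Il1f9, Il1f5 and Il1rn lie between 0.69 and 0.82, and Il1r1 and Il1rl2 lie at -0.21 and -0.31.

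Genes that process the cytokines were measured as a list of 24, of which 12 were expressed and 0 passed the rule of size. The median log2 ratio was 0.13, with 3 intervals above 1 and 1 below, beside the same shares of 16.6% and 17.4% over all expressed genes. Calpain 2, a protease of the family that cleaves the IL-1 alpha precursor, had a fold of 1.03 (1.01 to 1.05) for Capn2, and Hax1, whose protein binds that precursor, 0.98 (0.922 to 1.04). Caspase-1, which matures IL-1 beta and IL-18, had 23 and 35 reads for Casp1, a fold of 1.69 (0.973 to 3.0), named after its value was seen. The inflammasome sensor genes Nlrp1a, Nlrp1b, Nlrc4 and Aim2 had no reads, and Nlrp3 had 1 and 2. Nlrp10, of the same sensor family and named after its value was seen, was at 7.85 and 12.4 CPM and had a fold of 1.57 (1.27 to 1.95).

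All 23 genes of signalling close to the receptor were expressed, and 0 passed the rule in either direction. Their log2 ratios ran from -0.48 to 0.13 with a median of -0.01, with 2 intervals above 1 and 5 below, where the shares over all expressed genes were 16.6% and 17.4%. Ube2v1, a cofactor of ubiquitin chain synthesis by TRAF6, had a fold of 0.992 (0.938 to 1.05), and Ikbkg, the regulatory subunit of the IkB kinase, 0.886 (0.822 to 0.954). Named after their values were seen, the adaptor gene Myd88 had a fold of 0.994 (0.871 to 1.13), and Peli2, a ubiquitin ligase of the IRAK complex, 0.712 (0.63 to 0.805), the lowest of the list.

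Known targets of IL-1 and IL-36 in keratinocytes were higher more often than lower. Of 34 genes, 23 were expressed. Of these, 7 passed the rule as higher, against 0.811% of all expressed genes, and 0 as lower. The median log2 ratio was 0.51. The list was chosen with earlier results of these data known, so this count is not an independent check. Ccl2 and the chemokine gene Ccl20, both among the 7, reached 1 CPM only in the K5.Pp6fl/fl library. The 7 became 4 with 2 CPM added in place of 0.5, and 5 with a floor of 5 CPM. By FPKM, where no counting interval was asked for, 8 were higher and 1 lower, against 232 and 140 of 12306 expressed genes. Defb14 was among the higher genes, and the lower gene was Defb3. Neither was expressed by CPM. Defb3 had 12 and 5 reads and an implied length of 19.1 and 18.9 bases. These genes also respond to other signals, such as TNF. By log2 ratio, the first 6 were Tnf itself at 2.94-fold (2.19 to 4.01), the alarmin Tslp at 2.61-fold (2.28 to 2.99), the monocyte chemokine Ccl2 at 3.74-fold (1.87 to 8.14) and the calprotectin subunits S100a9 and S100a8 at 2.42-fold (1.96 to 3.01) and 2.35-fold (1.82 to 3.04), with the neutrophil chemokine Cxcl1 at 2.25-fold (2.07 to 2.45). Nfkbia, the NF-kB inhibitor induced by NF-kB, had a fold of 1.17 (1.11 to 1.22). Defb14, a beta-defensin gene, had 5 and 9 reads, and its deposited FPKM of 89.5 and 202.8 comes from an implied length of under 3 bases and is no measure of its level. Nfkbiz, which encodes a coactivator of IL-36 responses, was at 137 and 213 CPM and had a fold of 1.55 (1.48 to 1.63), named after its value was seen. The chemokine gene Cxcl3 was the expressed target with an interval below 1, at 0.668-fold (0.534 to 0.833).

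Of 10 markers of suprabasal keratinocytes, the differentiating layer above the basal cells, 7 had an interval above 1, against 16.6% of all expressed genes, and 1, Lor, passed the rule of size. The list had a median log2 ratio of 0.32 and a summed level of 1921 and 2414 CPM. The most abundant by FPKM, Dmkn, Sbsn and Krtdap, had folds of 1.24, 1.34 and 1.26, while Krt10 was at 0.77 (0.659 to 0.898). Krt1 at 0.944 (0.785 to 1.14) and Dsc1 at 1.02 (0.952 to 1.09) had intervals that include 1. Lor, Krt10, Krt1 and Dsc1 were named after their values were seen. Of 8 basal markers 6 had an interval below 1, against 17.4% of all expressed genes, and the median was -0.09. At the high read counts of Krt5 and Krt14, folds as near 1 as 0.961 and 0.93 had such an interval. The lowest folds were 0.773 for Dst and 0.776 for Trp63. Krt15 went the other way, at 1.52 (1.11 to 2.08). Dst, Trp63 and Krt15 were named after their values were seen. Fewer cells of a kind and less RNA per cell cannot be told apart in bulk RNA. The part of these marker differences in the ligand folds was not tested.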

How the data were processed

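RNA was sequenced from 1 Pp6fl/fl and 1 K5.Pp6fl/fl keratinocyte culture, from poly(A) RNA with a TruSeq kit, per the labels' protocols. The submitters' processing notes name RSEM, edgeR and the build mm8 without roles; the aligner and annotation were not given in the sources used here. Per gene, the authors deposited estimated counts multiplied by 1 constant per library. Dividing by that constant gave whole reads (within 0.01) for 97.3% and 97.4% of values under 100 reads, and these were rounded; unscaled values had been planned for. The deposited FPKM values divide counts by effective gene length. The deposited log2 fold changes and the deposited p-values and FDR were copied only.

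Of 47719 gene IDs 47219 matched a symbol (GENCODE, GRCm38), and genes without a symbol held 0.105% and 0.106% of reads. CPM used TMM-scaled library sizes (edgeR 4.0.16, R 4.3.3). Folds have exact conditional binomial intervals, and ratios of ratios have exact conditional odds-ratio intervals (SciPy 1.17.1), at 95%; reads lack molecular identifiers and are not independent molecules, so both cover counting error only. Calculations were tested on simulated data. The members and lists were chosen with earlier results of these data known. Named were all members, Ppp6c, in each pathway list up to 6 genes past the rule plus the 2 most abundant others by FPKM, and the most abundant markers.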

Additional observations from a re-analysis of the deposited data

How the results depend on the processing

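Across 5 alternatives (pseudocounts of 0.1 and 2 CPM, total-count scaling, DESeq2 size factors and FPKM), 8 of the 9 genes with a fold kept 1 sign; Il1r2 ran from -0.39 by FPKM to 0.14 in log2 ratio. Il1a stayed between 0.66 and 0.70, Il1f9 between 0.66 and 0.71, Il1f5 between 0.67 and 0.76, Il1rn between 0.75 and 0.87, Il1r1 between -0.21 and -0.18 and Il1rl2 between -0.36 and -0.31. Il18 ran from 0.56 to 1.69 and Il1f6 from 0.49 to 1.62. The 2 members past the rule of size became 0 with a pseudocount of 2 CPM and 0 with a floor of 5 CPM; both lie under 2 CPM. The counts over all expressed genes, 100 higher and 24 lower, became 173 and 57 with a pseudocount of 0.1 CPM, 34 and 5 with 2 CPM, 49 and 4 with a floor of 5 CPM, and 232 and 140 by FPKM, where no counting interval was asked for. Il18bp and Il1rl1 did not pass with 2 CPM, with a floor of 5 CPM or by FPKM. The log2 quotients of the agonist-to-antagonist ratios, -0.14 for IL-1 and -0.11 for IL-36 by reads, were -0.20 and -0.02 by FPKM, and that of Il1r2 over Il1r1 went from 0.37 to -0.54. The IL-36 ratio without Il1f8, chosen after seeing the data, was -0.02 by reads and 0.12 by FPKM. No paired analysis was possible because each genotype has 1 library and the labels give no replicate numbers.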
